A study of Rattus norvegicus with 16 samples.

Results

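The 10 genes described here encode feedback inhibitors of mitogen-activated protein (MAP) kinase signalling: 7 dual-specificity phosphatases (Dusp1, Dusp4, Dusp5, Dusp6, Dusp8, Dusp10 and Dusp16) and 3 Sprouty proteins (Spry1, Spry2 and Spry4). They were picked by symbol among the 32623 genes of the count table as inhibitors that report the activity of the kinases ERK, p38 and JNK. The rule used no measured value, but the genes were chosen with earlier results of these data known. All 10 were found, and all 10 passed the filter on low counts in each comparison, with counts per library from 20 for Dusp4 to 3392 for Dusp5.

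MAP kinases relay signals from growth factor receptors and from cellular stress through a chain of kinases to the nucleus. Dual-specificity phosphatases of the MAP kinase phosphatase family end the signal by removing phosphate from the kinases themselves, and each has preferred kinases and a preferred place in the cell. Sprouty proteins act further up, between receptor tyrosine kinases and Ras, and in the developing kidney Spry1 restrains Ret signalling during ureter budding. Several of these genes are themselves switched on by the kinases they restrain, so their transcripts are often read as a trace of recent pathway activity.

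RNA-seq was run on rat NRK-52E cells, a proximal tubule-derived epithelial line, and on rat NRK-49F kidney fibroblasts, names taken from the study. All cells were in indirect co-culture, with NRK-52E on a permeable filter insert above NRK-49F on the plate, so cell line and growth surface cannot be told apart. After 24 h without serum the co-cultures spent 48 h in medium of pH 7.4 or pH 6.0, which the sample labels write as pH7 and pH6. The 4 groups, NRK-52E pH 7.4, NRK-52E pH 6.0, NRK-49F pH 7.4 and NRK-49F pH 6.0, held 4 libraries each, and the labels do not say which NRK-52E and NRK-49F libraries shared a well, or whether replicates were separate cultures. The p-values below therefore measure the spread between these libraries, which may be technical.

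Counts assigned to genes ranged from 17760185 to 20612657 per library in NRK-52E pH 7.4 and from 16844811 to 23856187 in NRK-52E pH 6.0. The range was 17518187 to 27607214 in NRK-49F pH 7.4 and 16201084 to 34784862 in NRK-49F pH 6.0. Levels are given as FPM (fragment counts per unit of library size, with TMM scaling over all 16 libraries), which carry no correction for transcript length and so are compared between libraries but not between genes. Replicates keep the numbers of their titles, 1, 2, 5 and 6 for NRK-52E pH 7.4, 3, 4, 7 and 8 for NRK-52E pH 6.0, 9, 10, 13 and 14 for NRK-49F pH 7.4, and 11, 12, 15 and 16 for NRK-49F pH 6.0.

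Replicate 8 of NRK-52E pH 6.0 stood apart from its group. Its log2 profile correlated at r = 0.977 with the mean of the other replicates of the group, against 0.990 to 0.994 for those replicates, and 5.53% of the tested genes had it far from the rest. It was the lowest of its group for 9 of the 10 genes and the highest for the remaining Spry2. The pH effects of the 10 genes in NRK-52E are therefore given with and without it. Other values include it unless stated. Without it, each interaction and each difference between lines at pH 6.0 called below for the set was still called. So was each pH effect in NRK-52E called below for a named gene of the pathway lists, except that Etv5 is given only with replicate 8.

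The lines were checked against marker genes. Of 8 epithelial markers, 2 reached a mean of 1 FPM over the NRK-52E libraries: Krt8, the most abundant, with means of 430.4 FPM at pH 7.4 and 315.5 FPM at pH 6.0, and Krt19. Cdh1, which encodes E-cadherin, averaged 1.62 FPM (pH 7.4) and 0.315 FPM (pH 6.0), Epcam, Krt18, Cdh16 and Cldn7 had at most 4 counts in any NRK-52E library, and Esrp1 had 0, so the defining epithelial markers were at or near 0 in the line labelled epithelial. Of 8 fibroblast markers, 4 reached a mean of 1 FPM in NRK-52E and 6 in NRK-49F. Averaged over both pH groups, 5 of the 8 were higher in NRK-49F, so the list did not separate the lines as a whole. Col1a1 and Pdgfra had 23.6 FPM and 0.287 FPM in NRK-52E pH 7.4 against 6205 FPM and 391.9 FPM in NRK-49F pH 7.4. Col3a1 went the other way, with 6221 FPM in NRK-52E against 458.0 FPM in NRK-49F at pH 7.4, and 2630 FPM against 53.9 FPM at pH 6.0. The epithelial marker Krt8 was higher in NRK-49F at pH 7.4 (847.7 FPM), and Thy1 had 0 counts in every library. The summed fibroblast markers of NRK-52E, mostly Col3a1, moved from between 6200 and 6443 FPM at pH 7.4 to between 1845 and 3212 FPM at pH 6.0. In NRK-49F the summed epithelial markers, mostly Krt8, moved from between 785.4 and 948.8 FPM to between 199.4 and 220.3 FPM. Ptprc, the pan-leukocyte marker, had 0 counts in every library, while in NRK-49F Cd68 averaged 81.2 FPM (pH 7.4) and 242.7 FPM (pH 6.0). Endothelial markers in NRK-52E, nearly all from Tek, summed to at most 44.2 FPM at pH 7.4 and at most 8.04 FPM at pH 6.0, and Tek fell there by 2.57 on the log2 scale (adjusted p = 2.2e-07, edgeR). The part of these marker shifts in the results below was not tested. In RNA from whole cultures, fewer cells of a type and less RNA per cell cannot be told apart.

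In NRK-52E, 5 of the 10 genes changed with pH. A gene counts as called here when its false discovery rate (FDR) was below 0.01 in both edgeR and DESeq2 with the same sign, a rule that also called 56.6% of all 13735 genes tested in this line. Dusp1, Dusp4, Dusp5 and Dusp8 rose at pH 6.0 (4 of 10, against 28.2% of all genes called higher), and Spry1 fell (1 of 10, against 28.4% called lower). Libraries of the pH groups did not overlap for 5 of the 10 genes, against 62.9% of all genes tested, so the share of changed genes in the set was close to the background of this line.

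In NRK-49F, 5 of the 10 genes were called as well, against 37.9% of all 13339 genes tested. Dusp5 rose (1 of 10, against 18.5%), and Dusp6, Spry1, Spry2 and Spry4 fell (4 of 10, against 19.4% called lower). The pH groups did not overlap for those 5 genes, against 48.2% of all genes. The median log2 fold change of the 10 genes was 0.30 for NRK-52E and -0.48 for NRK-49F, where the medians of all genes tested were 0.0014 and -0.0029. The NRK-52E median is given with replicate 8 included only, and the values of each gene without it follow below.

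Whether pH acted differently on the lines was tested as an interaction, which was called for 5 of the 10 genes, against 37.0% of all 14679 genes tested. The pH effect was more positive in NRK-52E for Dusp8, Dusp10, Spry1 and Spry2 (4 of 10, against 19.4% of all genes) and more positive in NRK-49F for Dusp5 (1 of 10, against 17.6%). Without replicate 8 the counts of called genes became 6 in NRK-52E, with Dusp10 added, and 7 for the interaction, with Dusp4 and Spry4 added, while the share of all genes rose as well, to 64.2% and 39.95%.

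**Figure D1:**
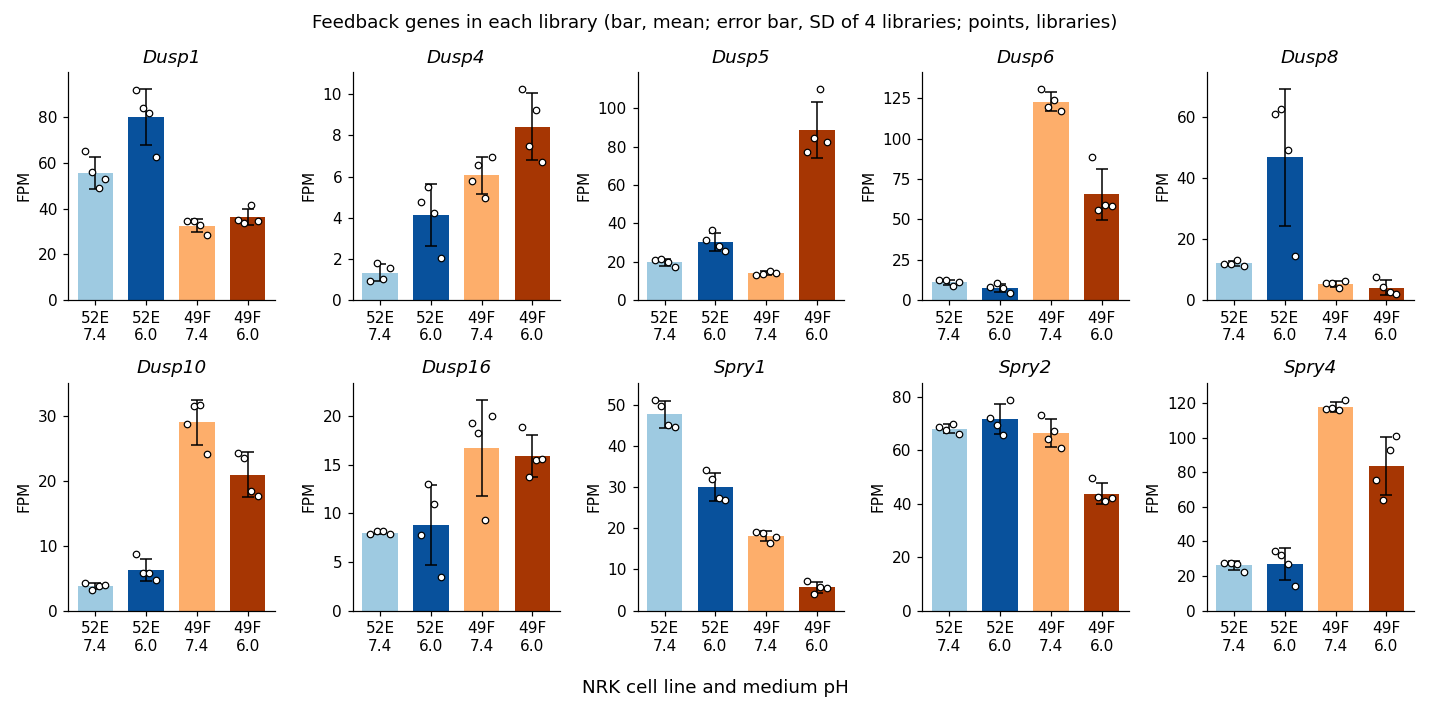
Level of each gene in FPM (vertical axes, each starting at 0) in the 4 groups of cell line and medium pH, with the mean as bar, the SD of 4 libraries as error bar and each library as a point. Dusp5 in NRK-49F lay between 12.8 and 15.1 FPM at pH 7.4 and between 77.2 and 110.2 FPM at pH 6.0, and the low point of Dusp8 in NRK-52E at pH 6.0 (14.3 FPM) is replicate 8.

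Dusp5 encodes a nuclear phosphatase that acts on ERK and holds it in the nucleus, and it had the largest pH effect of the set. In NRK-49F at pH 7.4 it was at 12.8, 13.7, 15.1 and 14 FPM in replicates 9, 10, 13 and 14. At pH 6.0 it was at 77.2, 84.6, 110.2 and 82.3 FPM in replicates 11, 12, 15 and 16. All 4 acid libraries lay far above all 4 control libraries, with replicate 15 the highest. The log2 fold change was 2.66 ± 0.12 (SE), a 6.30-fold rise (adjusted p = 2.6e-08, edgeR quasi-likelihood test).

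In NRK-52E the same gene was at 20.8, 21.1, 19.8 and 17.0 FPM at pH 7.4 (replicates 1, 2, 5 and 6). At pH 6.0 it was at 31.5, 36.4, 28.0 and 25.4 FPM (replicates 3, 4, 7 and 8). The groups did not overlap, and the distance between the highest control and the lowest acid library was small beside that in NRK-49F. Dusp5 rose by 0.60 ± 0.13 on the log2 scale (adjusted p = 0.0020, edgeR), and by 0.67 without replicate 8. This call was lost when replicate 6 was left out (0.52, adjusted p = 0.0127) and when counts were scaled to library totals (0.39, adjusted p = 0.0272). The pH effect on Dusp5 was smaller in NRK-52E by -2.07 ± 0.18 log2 units (interaction, adjusted p = 7.3e-08, edgeR). The order of the lines switched with pH, Dusp5 being lower in NRK-49F than in NRK-52E at pH 7.4 (log2 fold change -0.59, adjusted p = 0.00041, edgeR) and higher at pH 6.0 (1.56, adjusted p = 1.4e-06, edgeR).

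Dusp1, also called MKP-1, is an immediate-early nuclear phosphatase that acts on p38, JNK and ERK. NRK-52E held 65.3, 56.0, 48.8 and 52.7 FPM at pH 7.4 in replicates 1, 2, 5 and 6, and 91.9, 84.2, 81.6 and 62.7 FPM at pH 6.0 in replicates 3, 4, 7 and 8. Replicate 8, the lowest acid library, lay below replicate 1, the highest control, and the other acid libraries lay above all controls. Dusp1 rose by 0.50 ± 0.13 log2 units (1.42-fold, adjusted p = 0.0047, edgeR), and by 0.60 without replicate 8 (adjusted p = 0.00025). Leaving out any of replicates 2 to 7 in NRK-52E ended the call, with adjusted p up to 0.0266, and so did scaling to library totals (0.30, adjusted p = 0.0537). In NRK-49F it ranged from 28.3 to 34.6 FPM at pH 7.4 and from 33.7 to 41.4 FPM at pH 6.0, with overlapping groups and a log2 fold change of 0.14 ± 0.11 (adjusted p = 0.292, edgeR). The difference between these pH effects was 0.35 ± 0.17 and not called (adjusted p = 0.101, edgeR), so a difference between the lines in the Dusp1 response was not shown.

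Dusp4, the nuclear phosphatase MKP-2, was low in NRK-52E at pH 7.4. It was at 0.937, 1.80, 0.995 and 1.57 FPM there (replicates 1, 2, 5 and 6), with counts down to 20 per library. At pH 6.0 the values were 4.77, 5.48, 4.22 and 2.02 FPM in replicates 3, 4, 7 and 8. Every acid library lay above every control, and replicate 8 lay nearest to them. The log2 fold change was 1.60 ± 0.34 (3.04-fold, adjusted p = 0.0016, edgeR) and 1.83 without replicate 8. NRK-49F fibroblasts held 5.77, 6.57, 4.94 and 6.96 FPM of Dusp4 at pH 7.4 (replicates 9, 10, 13 and 14) and 10.3, 7.49, 9.23 and 6.72 FPM at pH 6.0 (replicates 11, 12, 15 and 16). Only replicate 16 of the acid libraries fell within the control range, and the fold change of 0.46 ± 0.19 was not called (adjusted p = 0.055, edgeR). The interaction of 1.14 ± 0.39 was not called either (adjusted p = 0.0206, edgeR) but was 1.36 without replicate 8 (adjusted p = 0.0015).

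Dusp6, or MKP-3, is a cytoplasmic phosphatase selective for ERK and a standard transcriptional readout of ERK activity. The fibroblasts held 131.0, 119.7, 124.0 and 117.4 FPM at pH 7.4 in replicates 9, 10, 13 and 14. At pH 6.0 they held 88.9, 55.6, 58.7 and 58.4 FPM in replicates 11, 12, 15 and 16. All acid libraries were below all controls, and replicate 11 was well above the other acid libraries. Dusp6 fell in NRK-49F by 0.92 on the log2 scale (SE 0.14, adjusted p = 0.00015, edgeR), which is 1.90-fold lower. In NRK-52E it ranged from 8.58 to 12.1 FPM at pH 7.4 and from 4.23 to 10.2 FPM at pH 6.0, the groups overlapped, and the log2 fold change of -0.59 ± 0.24 was not called (adjusted p = 0.046, edgeR). Without replicate 8, the lowest library, it was -0.40 (adjusted p = 0.0504). The pH effects did not differ at the threshold between the lines (interaction 0.33 ± 0.27, adjusted p = 0.331, edgeR). Without replicate 8 the interaction was 0.52 and again not called (adjusted p = 0.0572, edgeR). The difference between the lines themselves was large, with Dusp6 10.6-fold higher in NRK-49F at pH 7.4 (log2 fold change 3.41, adjusted p = 1.6e-10, edgeR) and 8.96-fold higher at pH 6.0 (3.16, adjusted p = 2.6e-07, edgeR).

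Dusp8, Dusp10 and Dusp16 prefer the stress kinases JNK and p38 over ERK. For Dusp8, NRK-52E held 11.9, 11.7, 13.1 and 11.2 FPM at pH 7.4 in replicates 1, 2, 5 and 6. At pH 6.0 the level was 61.0, 62.6 and 49.3 FPM in replicates 3, 4 and 7 but 14.3 FPM in replicate 8. The latter lay just above the controls, and the other acid libraries lay several-fold higher. Dusp8 rose by 1.94 ± 0.36 log2 units (3.84-fold, adjusted p = 0.00066, edgeR), and without replicate 8 the log2 fold change was 2.24 (adjusted p = 3.2e-08).

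In NRK-49F, Dusp8 was at 5.60, 5.46, 3.95 and 6.17 FPM at pH 7.4 (replicates 9, 10, 13 and 14). At pH 6.0 it was at 7.35, 4.11, 2.44 and 1.78 FPM (replicates 11, 12, 15 and 16). Replicate 11 lay above all controls, replicates 15 and 16 lay below them, and the log2 fold change of -0.47 ± 0.37 was not called (adjusted p = 0.312, edgeR). It ranged from -0.98 without replicate 11 (adjusted p = 0.0170) to -0.21 without replicate 16. The interaction of 2.42 ± 0.56 was called (adjusted p = 0.0015, edgeR) and was 2.73 without replicate 8. Dusp8 was lower in the fibroblasts at pH 7.4 (log2 fold change -1.25, adjusted p = 1.4e-05, edgeR) and by more at pH 6.0 (-3.58, adjusted p = 4.1e-05, edgeR). With all 16 libraries in a single fit the call at pH 7.4 was lost (-1.17, adjusted p = 0.0130).

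Dusp10, or MKP-5, had fold changes of opposite sign in the lines, and neither passed the threshold in the main fits. NRK-52E held 4.26, 3.20, 3.77 and 4.0 FPM at pH 7.4 in replicates 1, 2, 5 and 6, and 8.75, 5.75, 5.82 and 4.65 FPM at pH 6.0 in replicates 3, 4, 7 and 8. NRK-49F held 28.8, 31.5, 31.7 and 24.2 FPM at pH 7.4 in replicates 9, 10, 13 and 14, and 24.3, 23.5, 18.4 and 17.7 FPM at pH 6.0 in replicates 11, 12, 15 and 16. The NRK-52E groups did not overlap, while in NRK-49F replicate 11 at pH 6.0 just exceeded replicate 14 at pH 7.4. The log2 fold changes were 0.69 ± 0.22 in NRK-52E (adjusted p = 0.0164, edgeR) and -0.49 ± 0.15 in NRK-49F (adjusted p = 0.014, edgeR). DESeq2 alone gave adjusted p = 0.0079 and 0.0072. The NRK-52E change passed in both tools without replicate 8 (0.80, adjusted p = 0.0040) and with all 16 libraries in a single fit (0.68, adjusted p = 0.0042). The NRK-49F change passed without replicate 11, without replicate 14, and with the second number of the column names, described below, as a covariate (-0.50, adjusted p = 0.0060). The difference between the pH effects was called at 1.16 ± 0.26 (adjusted p = 0.0011, edgeR).

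Dusp16, also called MKP-7, was at 7.87, 8.15, 8.21 and 7.90 FPM in NRK-52E at pH 7.4 (SD 0.172). At pH 6.0 it was at 7.77, 13, 10.9 and 3.48 FPM in replicates 3, 4, 7 and 8. The acid libraries fell on both sides of the controls, and the log2 fold change was 0.10 ± 0.31 (adjusted p = 0.777, edgeR), 0.37 without replicate 8 (adjusted p = 0.0596) and -0.09 with scaling to library totals. In NRK-49F it was at 19.3, 18.2, 9.35 and 20.1 FPM at pH 7.4 and ranged from 13.8 to 18.9 FPM at pH 6.0, with a log2 fold change of -0.09 ± 0.20 (adjusted p = 0.735, edgeR). The low control was replicate 13, which was also the lowest of its group for 5 of the 10 genes and whose log2 profile correlated at 0.988 with the mean of the others.

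Spry1 was the only gene of the set called lower in both lines. In NRK-52E it was at 51.3, 49.8, 45.1 and 44.6 FPM at pH 7.4 (replicates 1, 2, 5 and 6). At pH 6.0 it was at 34.1, 31.9, 27.3 and 27.0 FPM (replicates 3, 4, 7 and 8). Every acid library was below every control, and replicate 8 lay beside replicate 7. The log2 fold change was -0.68 ± 0.11 (1.61-fold lower, adjusted p = 0.00023, edgeR), and -0.64 without replicate 8.

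The fibroblasts held less Spry1, at 19.1, 19.0, 16.53 and 17.8 FPM in replicates 9, 10, 13 and 14 at pH 7.4. At pH 6.0 they held 7.31, 4.11, 5.65 and 5.47 FPM in replicates 11, 12, 15 and 16. The groups were far apart, and the fall of 1.69 on the log2 scale (SE 0.17, 3.23-fold lower, adjusted p = 6.3e-06, edgeR) was the largest fall of the set. It exceeded that in NRK-52E by 0.99 ± 0.20 log2 units (interaction, adjusted p = 0.00040, edgeR). The 4 groups of Spry1 thus formed a ladder, with NRK-52E pH 7.4 highest, then NRK-52E pH 6.0, NRK-49F pH 7.4 and NRK-49F pH 6.0, and no library of a group overlapped the next.

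Spry2, a broadly expressed Sprouty, was lower in acid fibroblasts than in any other group. NRK-52E held 68.6, 67.3, 69.8 and 65.9 FPM at pH 7.4 and 72.1, 69.2, 65.6 and 78.9 FPM at pH 6.0. NRK-49F held 72.9, 64.0, 67.2 and 60.6 FPM at pH 7.4 in replicates 9, 10, 13 and 14, and 49.4, 42.4, 41.1 and 42.0 FPM at pH 6.0 in replicates 11, 12, 15 and 16. All 4 acid fibroblast libraries lay below the 12 others, and those others overlapped. Spry2 fell in NRK-49F by 0.61 on the log2 scale (SE 0.10, 1.53-fold lower, adjusted p = 0.00028, edgeR). The log2 fold change in NRK-52E was 0.06 ± 0.09 (adjusted p = 0.607, edgeR), -0.0044 without replicate 8 and -0.16 with scaling to library totals. The interaction was 0.66 ± 0.13 (adjusted p = 0.00045, edgeR) and lost its call with scaling to library totals (0.41, adjusted p = 0.016).

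Spry4 was at 116.6, 117.4, 115.8 and 122.1 FPM in NRK-49F at pH 7.4 (replicates 9, 10, 13 and 14). At pH 6.0 it was at 75.5, 64.3, 93.2 and 101.2 FPM (replicates 11, 12, 15 and 16). The controls lay within a narrow band, and the acid libraries were lower and spread widely. Spry4 fell by 0.51 on the log2 scale (SE 0.12, 1.43-fold lower, adjusted p = 0.0035, edgeR). The call was lost without replicate 11, 12 or 14, with adjusted p up to 0.0118, and with all 16 libraries in a single fit. In NRK-52E it ranged from 22.6 to 27.5 FPM at pH 7.4 and from 14.01 to 34.3 FPM at pH 6.0, with replicate 8 lowest. The log2 fold change there was 0.02 ± 0.23 (adjusted p = 0.954, edgeR), 0.23 without replicate 8 (adjusted p = 0.101) and -0.19 with scaling to library totals. The interaction of 0.52 ± 0.27 was not called (adjusted p = 0.123, edgeR), but was 0.73 without replicate 8 (adjusted p = 0.0024).

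**Figure D2:**
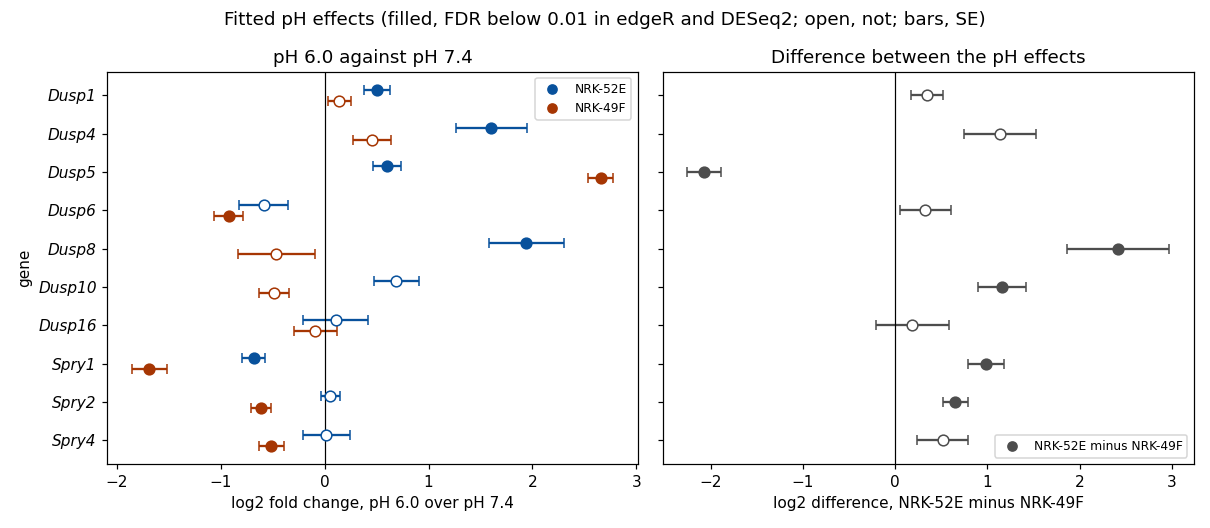
Left, log2 fold change of pH 6.0 over pH 7.4 for each gene in NRK-52E (blue) and NRK-49F (brown), and right, the log2 difference between these effects, NRK-52E minus NRK-49F, all from edgeR with SE bars and filled points where the FDR was below 0.01 in both tools. Dusp5 stands at 2.66 in NRK-49F and 0.60 in NRK-52E, Dusp8 at 1.94 in NRK-52E, and Spry1 lies below 0 in both lines.

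Side by side, Dusp5 and Spry1 were called in both lines, Dusp1, Dusp4 and Dusp8 in NRK-52E alone, Dusp6, Spry2 and Spry4 in NRK-49F alone, and Dusp10 and Dusp16 in neither, with the settings that called Dusp10 given above. Of the genes called in a single line, the interaction was called for Dusp8 and Spry2 and not for Dusp1, Dusp4, Dusp6 or Spry4. The 3 nuclear phosphatases rose in NRK-52E (28.2% of all genes did), with the losses for Dusp1 and Dusp5 given above. The 3 Sprouty genes of the set fell in the fibroblasts (19.4% of all genes did), with the losses for Spry4 given above, and Spry3, outside the set, was not called there.

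By mean level, every step in the order of the 4 groups was called for Dusp5 (NRK-49F pH 7.4, NRK-52E pH 7.4, NRK-52E pH 6.0, NRK-49F pH 6.0, from low to high). Dusp6, Dusp10, Dusp16 and Spry4 had both NRK-52E groups lowest and NRK-49F pH 7.4 highest, with NRK-52E groups that did not differ at the threshold. Dusp8 ran from NRK-49F pH 6.0 and pH 7.4, which did not differ at the threshold, to NRK-52E pH 7.4 and NRK-52E pH 6.0. For Dusp4 the libraries of NRK-52E pH 6.0 and NRK-49F pH 7.4, neighbours in the order, overlapped.

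The column names of the count table carry a second number whose meaning the sources used here do not give, 21 or 22 in NRK-52E and 20 or 21 in NRK-49F, with 2 libraries of each number per group. With it as a covariate, 5 genes were called in NRK-52E (54.7% of all genes) and 6 in NRK-49F, with Dusp10 added (39.2% of all genes). Within number 21 of NRK-52E, Dusp4 (1.85), Dusp5 (0.65), Dusp8 (2.35) and Spry1 (-0.66) were called, against 37.7% of all genes. Within number 22, which holds replicate 8, the log2 fold changes were 1.26, 0.51, 1.36 and -0.74 and 0 of the 10 genes were called by both tools, with 0 by edgeR alone, 2 by DESeq2 alone and 5 at an unadjusted edgeR p below 0.05. Calls by both tools fell there to 19.3% of all genes. In NRK-49F, Dusp5 was at 2.61 within number 20 and 2.71 within number 21, and Spry1 at -1.70 and -1.65, called in each. Dusp6 was at -0.79 within number 20 (adjusted p = 0.0271, edgeR) and -1.06 within number 21. Spry4 was at -0.74 within number 20 and -0.31 within number 21 (adjusted p = 0.184, edgeR), and Spry2 at -0.57 and -0.64, the latter not called (adjusted p = 0.0152, edgeR). The shares of all genes called were 35.2% and 16.53%.

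Between the lines at the same pH, most of the set differed, as did most genes. At pH 7.4, 9 of the 10 genes were called, against 66.5% of 14026 genes tested. Dusp4, Dusp6, Dusp10, Dusp16 and Spry4 were higher in NRK-49F (5 of 10, against 33.3% of all genes), and Dusp1, Dusp5, Dusp8 and Spry1 were lower (4 of 10, against 33.3%). Dusp10 was 7.20-fold higher (log2 fold change 2.85, adjusted p = 4.8e-09, edgeR). Spry4 was 4.26-fold higher (2.09, adjusted p = 8.0e-10, edgeR), and Dusp4 was 4.31-fold higher (2.11, adjusted p = 8.7e-06, edgeR). Spry2 did not differ at the threshold (-0.12 ± 0.08, adjusted p = 0.165, edgeR).

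At pH 6.0, 9 of the 10 genes were called, against 59.8% of 13796 genes tested. Dusp4, Dusp5, Dusp6, Dusp10 and Spry4 were higher in NRK-49F (5 of 10, against 31.3%), and Dusp1, Dusp8, Spry1 and Spry2 were lower (4 of 10, against 28.5%). Dusp16 was not called (0.87 ± 0.31, adjusted p = 0.0245, edgeR) but was without replicate 8 (0.61, adjusted p = 0.0093) and without replicate 4 (1.10, adjusted p = 0.0079), the ends of its range over replicates left out. In the single fit of 16 libraries it passed in edgeR only (adjusted p = 0.0099). The call for Dusp4 (1.05 ± 0.29, adjusted p = 0.0059, edgeR) was lost without replicate 3, 7, 11 or 15, with adjusted p up to 0.0191. Spry1 was lower in the fibroblasts by 2.39 log2 units than in NRK-52E (fold change -2.39 ± 0.19, adjusted p = 2.8e-07, edgeR), against -1.48 ± 0.09 at pH 7.4 (adjusted p = 2.5e-08, edgeR). These comparisons share their libraries with the pH comparisons above.

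Across the 16 libraries some of the genes followed each other, and the points share their 4 groups. On log2(FPM + 1), Dusp6 and Spry4 correlated at r = 0.97, Dusp6 and Dusp10 at 0.94, Dusp10 and Spry4 at 0.94, Dusp1 and Dusp8 at 0.89, and Spry1 and Spry2 at 0.88. Dusp1 and Dusp6 ran in opposite directions at -0.89, and Dusp5 and Spry2 at -0.83. The gene closest to Dusp5 among 11486 was Txnip (0.973), which encodes a thioredoxin-binding protein, followed by Kctd5 (0.969) and Shpk (0.966). The values for Dusp8 were 0.981 for Atxn2, 0.980 for Zbtb24 and 0.979 for Oxsr1, a kinase that regulates chloride cotransporters. Genes that followed Spry1 included Cdh3 (0.987), which encodes P-cadherin, and Fzd4 (0.985), a Wnt receptor. Within groups, after removal of the group means, Dusp8 still followed Atxn2 at 0.899 (0.758 without replicate 8), while Dusp5 followed Txnip at 0.192 (0.0066 without it). Closest to Dusp1 was Golga7 (0.976), to Dusp4 Lrrfip1 (0.983), to Dusp6 Actg1 (0.989), to Dusp10 Ppp1r18 (0.990), to Dusp16 Pacs1 (0.936), to Spry2 Id1 (0.963), and to Spry4 Arhgef6 (0.978).

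Other genes of the pathway were counted by the same call. Of the further MAP kinase phosphatases and Sprouty, Dusp7 rose in NRK-52E (log2 fold change 0.31, adjusted p = 0.0082, edgeR) and was -0.11 in NRK-49F (adjusted p = 0.455, edgeR). Spry3 was -0.62 in NRK-49F (adjusted p = 0.0145 in edgeR and 0.0055 in DESeq2, not called) and too low to test in NRK-52E, and Dusp2 and Dusp9 were too low to test in either line. Among 14 other feedback regulators tested in NRK-52E, not all of them plain inhibitors, 3 rose and 3 fell (all genes 28.2% and 28.4%). Errfi1, an inhibitor of the EGF receptor, rose by 0.91 ± 0.13, and Il17rd, a membrane inhibitor of FGF signalling, fell by 1.57 on the log2 scale. In NRK-49F, 3 of 13 rose and 2 fell (all genes 18.5% and 19.4%). The early response gene Ier3 rose by 1.17 ± 0.10 there and Pea15, a cytoplasmic anchor of ERK, fell by 1.81. Lrig1, an inhibitor of ErbB receptors, rose in NRK-52E by 1.04 (adjusted p = 0.0087, edgeR) and fell in NRK-49F by 1.05. Replicate 8, at 31.97 FPM, lay within the NRK-52E control range of Lrig1, and without it the rise was 1.30.

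Of the other transcripts that ERK drives in many cells, 5 of 13 rose and 2 fell in NRK-52E (all genes 28.2% and 28.4%), and 4 of 13 rose and 4 fell in NRK-49F (18.5% and 19.4%). Fosl1, an AP-1 subunit, rose in both lines, by 1.11 ± 0.29 (NRK-52E) and 2.08 ± 0.12 (NRK-49F). Etv1, an ETS factor often read beside Dusp6 and the Sprouty genes, fell in both, by 4.33 (NRK-52E) and 1.98 (NRK-49F). The ETS factors of the list did not move together. Etv5 rose in NRK-52E by 1.68 ± 0.33 with replicate 8 included (adjusted p = 0.00092, edgeR). In NRK-49F Etv5 was 0.21 and not called (adjusted p = 0.110, edgeR). Etv4 was not called in either line, at 0.20 in NRK-52E (adjusted p = 0.644, edgeR) and -0.17 in NRK-49F (adjusted p = 0.166, edgeR). Myc fell by 0.60 in NRK-52E and rose by 1.93 ± 0.16 in NRK-49F, and Epha2 rose by 3.18 ± 0.31 in NRK-52E and fell by 0.78 in NRK-49F. The medians of this list were 0.18 for NRK-52E and 0.21 for NRK-49F.

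Upstream, 26 kinases and Ras proteins of the cascades were tested in each line. In NRK-52E 5 rose and 6 fell, shares below the 28.2% and 28.4% of all genes, including Hras at 1.15 ± 0.12 and the p38 kinase kinase Map2k6, which fell by 3.72. In NRK-49F 10 rose and 3 fell (all genes 18.5% and 19.4%), including Map3k1 at 1.61 ± 0.27 and Map2k6, which fell by 2.22. Without replicate 8 the cascade counts in NRK-52E were 8 higher and 8 lower (all genes 31.4% and 32.8%). Those of the other feedback regulators were 3 higher and 4 lower, and the counts of the remaining pathway lists were as given. Receptor tyrosine kinases gave 1 rise and 4 falls among 9 tested in NRK-52E (all genes 28.2% and 28.4%), and 1 rise and 4 falls among 12 in NRK-49F (18.5% and 19.4%). Pdgfrb, a PDGF receptor, fell in both lines, by 1.53 (NRK-52E) and 2.01 (NRK-49F).

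A list of stress genes linked to JNK and p38 also held Mapkapk2 and Mapkapk3, which encode kinases. It gave 6 rises and 3 falls among 10 tested in NRK-52E (all genes 28.2% and 28.4%). In NRK-49F it gave 1 rise and 1 fall among 9 (18.5% and 19.4%). Which signal moved these genes was not tested. The interaction was called with a more positive pH effect in NRK-52E for 5 of the 10 and in NRK-49F for 3 (all genes 19.4% and 17.6%). The median of this list was 0.93 for NRK-52E and 0.05 for NRK-49F. Atf3, a stress-induced transcription factor, rose by 4.66 ± 0.37 in NRK-52E and by 2.79 ± 0.27 in NRK-49F. Gadd45a, a growth arrest gene, rose by 4.13 ± 0.16 in NRK-52E and was 0.16 ± 0.11 in NRK-49F (adjusted p = 0.261, edgeR). Jun and Junb, themselves AP-1 subunits, fell in NRK-52E by 0.81 and 1.27.

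Promoter sequences from RefSeq (build GRCr8, while the counts were made on rn6) were on hand for 9 of the 10 genes, all but Dusp4, with 10 entries because Spry2 had a second start. The 250 bases before each start were searched on both strands. The CArG element, to which serum response factor binds, occurred in 1.50% of 33469 promoters and in Dusp5 alone of the 9 genes. The cAMP response element TGACGTCA occurred in 1.59% of promoters and in Dusp1 alone, and the AP-1 site TGACTCA in 4.05% and in none of the 9 genes. The antioxidant response element TGACNNNGC was in 10.1% of promoters and in Spry1 and Spry2, and the Capicua sites TGAATGAA and TGAATGGA together in 2.26% and in Dusp16 and Spry4. A match says only that these letters are in the window. The promoters of Dusp5 and Spry1, the genes called in both lines, and of Dusp8, which rose most in NRK-52E, are given from 250 bases before the start to the start, in lower case with matches in capitals. In Dusp5 (chr1:262543524-262543773, plus strand) the capitals mark a pair of adjoining CArG elements that begin 82 and 72 bases before the start. In Spry1 (chr2:122485097-122485346, plus strand) they mark the antioxidant response element 226 bases before the start, and Dusp8 (chr1:206612442-206612691, minus strand) held none of the motifs.
Dusp5: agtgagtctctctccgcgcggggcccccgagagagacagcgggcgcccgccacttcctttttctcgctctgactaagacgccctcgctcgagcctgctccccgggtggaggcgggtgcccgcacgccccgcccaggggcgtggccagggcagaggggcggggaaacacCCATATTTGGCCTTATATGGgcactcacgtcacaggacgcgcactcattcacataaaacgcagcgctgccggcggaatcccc
Spry1: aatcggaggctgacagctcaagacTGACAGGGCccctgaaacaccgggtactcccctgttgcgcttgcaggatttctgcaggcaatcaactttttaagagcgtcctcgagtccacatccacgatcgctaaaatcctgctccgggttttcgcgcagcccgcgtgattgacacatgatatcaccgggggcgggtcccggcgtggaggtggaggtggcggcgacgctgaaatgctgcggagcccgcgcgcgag
Dusp8: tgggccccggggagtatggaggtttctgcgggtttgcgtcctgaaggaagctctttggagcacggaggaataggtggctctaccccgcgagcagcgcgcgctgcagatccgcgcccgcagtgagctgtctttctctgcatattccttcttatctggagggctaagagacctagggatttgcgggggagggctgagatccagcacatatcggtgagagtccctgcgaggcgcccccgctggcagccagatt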

How the data were processed

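The authors deposited counts of fragments per gene, not normalized, from poly(A)-selected paired-end libraries, counted by featureCounts over exons on the build rn6. Fragments mapping to several places counted at all of them, and use of strand is not given, so reads of overlapping, antisense or near-identical genes cannot be told apart. The study's methods name tophat2 as aligner, the submitters' processing notes HISAT2 2.1.0.

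Each comparison was fitted on all genes in R 4.3.3 with edgeR 4.0.16 (TMM scaling, filterByExpr, robust quasi-likelihood test) and DESeq2 1.42.0 (Wald test), with Benjamini-Hochberg adjustment over all genes tested. Fold changes, SE and adjusted p are edgeR's unless named. The pH and cell line comparisons used 8 libraries each, the interaction all 16. The scripts were tested on simulated data. From each pathway list, up to 3 largest rises and 3 largest falls per line could be named. Non-significant values of a gene named in the other line, the values of Etv4, and the choice among named genes were added after their values were seen. The 10 genes and the lists were chosen with earlier results of these data known. Some withheld items are not reported here.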

Additional observations from a re-analysis of the deposited data

Results flagged for a closer look

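In 3 of 40 groups of 4 libraries (10 genes in 4 groups), a single library lay far from the rest by Dixon's criterion, which chance meets in about 1 of 20 groups, or 2 of 40. Dusp6 in NRK-49F pH 6.0 was at 88.9 FPM in replicate 11, with the others between 55.6 and 58.7 FPM. Spry2 was at 49.4 FPM in the same replicate, with the others between 41.1 and 42.4 FPM. Spry4 in NRK-52E pH 7.4 was at 22.6 FPM in replicate 6, with the others between 27.1 and 27.5 FPM. Causes were not tested.

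The pH effect differed between the cell lines by the interaction test for 5 genes. The log2 difference, NRK-52E minus NRK-49F, was -2.07 for Dusp5, 2.42 for Dusp8, 1.16 for Dusp10, 0.99 for Spry1 and 0.66 for Spry2.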

How the results depend on the processing

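Library totals in place of TMM put the all-gene median log2 fold change at -0.21 in NRK-52E (37.6% of calls higher, against 49.8%), to -0.25 for the interaction (33.7%, against 52.4%), to -0.34 between lines at pH 7.4 (34.3%, against 50.01%) and to -0.12 at pH 6.0. Under it 3 of the 10 genes were called in NRK-52E (all genes 56.1%), and the log2 fold changes there became -0.090 for Dusp16, -0.16 for Spry2 and -0.19 for Spry4, with the interaction of Dusp16 at -0.036. Between lines at pH 7.4 a single fit of 16 libraries lost Dusp8. Library totals lost Dusp16 and gained Spry2 at pH 7.4 and lost Dusp4 at pH 6.0. Asking for a log2 fold change of at least 1 left 2 genes in each line (all genes 32.3% in NRK-52E and 15.04% in NRK-49F). Within second number 22 of NRK-52E 0 genes were called by edgeR and DESeq2 together (5 at an unadjusted edgeR p below 0.05, 2 by DESeq2 alone, all genes 19.3%), with Dusp16 at -0.19 and Spry4 at -0.31. Within number 21 of NRK-49F 3 were called (all genes 16.53%), with Dusp16 at 0.046, and Dusp8 was 0.077 within number 20. Spry4 in NRK-52E was -0.0084 without the low-count filter and -0.022 with the second number as covariate. Leaving out each replicate gave 3 to 6 called genes in NRK-52E (all genes 48.7% to 64.2%), and ranges of -0.13 to 0.23 for Spry4, -0.15 to 0.37 for Dusp16 and -0.0044 to 0.11 for Spry2 there, of -0.28 to 0.0037 for Dusp16 in NRK-49F, and of -0.054 to 0.45 for its interaction. None of these sign changes concerned a called value, and the cause was not tested.

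Dusp5 in NRK-49F kept its call under every setting run (2.55 to 2.72 over replicates left out), as did Spry1 there (-1.83 to -1.58). For the named genes of the pathway lists, 118 values under other settings kept their sign but lost their call. A further 912 kept their sign and call status, whatever the change in size. Their values are printed above only for the main fits or without replicate 8. The rises of Dusp7 (adjusted p = 0.0082, edgeR) and Lrig1 (adjusted p = 0.0087, edgeR) in NRK-52E lay near the threshold. Counts of called list genes and within-group correlations without replicate 8 (0.0066 for Dusp5 with Txnip) were added after seeing the data. Single libraries were not paired because the groups share no replicate number. The second number, held by 2 libraries of each pH group, was run as a block and added Dusp10 in NRK-49F.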
